A study of Homo sapiens with 6 samples.

Results

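The 10 genes described here encode integrin subunits of leukocytes, namely ITGAL, ITGAM, ITGAX, ITGAD, ITGB2, ITGA4, ITGA5, ITGA6, ITGB1 and ITGB7. They were taken by name from a count table of 56638 genes, and 9 of the 10 had enough reads to be among the 16340 genes tested. RNA was sequenced from HL60, an established human line of acute myeloid leukaemia with promyelocytic features, grown in medium with 10% foetal calf serum. One group of 3 libraries is labelled as the CRISPR/Cas9 control, with no target named, and the other 3 libraries as carrying a deletion of SKI made with CRISPR/Cas9. SKI encodes a transcriptional co-repressor that binds SMAD proteins. All titles of a group carry 1 number, 1 for the control and 3 for the knockout, and the labels do not say whether it names a clone. If each group was 1 clone, an effect of the deletion and a difference between clones cannot be told apart. The labels also do not say whether replicates were separate cultures, so the p-values below measure only how far these libraries differ, which may be technical spread.

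An integrin is a pair of 1 alpha and 1 beta chain that spans the cell membrane and binds other cells or matrix outside and the actin skeleton inside. The product of ITGB2 (CD18) is found on leukocytes and pairs with the products of ITGAL (CD11a, together LFA-1), ITGAM (CD11b, together Mac-1 or complement receptor CR3), ITGAX (CD11c) and ITGAD (CD11d). A chain without its partner is held back inside the cell, and inherited loss of ITGB2 causes leukocyte adhesion deficiency. The product of ITGB1 pairs with those of ITGA4 (VLA-4, which binds VCAM1 and fibronectin), ITGA5 (the fibronectin receptor) and ITGA6 (a laminin receptor), and the product of ITGB7 pairs with that of ITGA4 to bind MADCAM1 in the gut. In HL60 cells CD11b is a classical marker of induced granulocytic maturation.

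Of the 10 genes, 6 had a promoter in the RefSeq table (GRCh38.p14), namely ITGAM, ITGA4, ITGA5, ITGA6, ITGB1 and ITGB7. ITGAL, ITGAX, ITGAD and ITGB2 were not among them. The 250 bases before the annotated start are shown for ITGAM, the alpha chain gene next to ITGAX, and for ITGA4, which had the largest SD relative to its mean among knockout libraries of the 9 tested members. Capitals mark GAGGAA, the core bound by the myeloid factor PU.1, searched on both strands. The ITGAM window is chr16:31259725-31259974 and the ITGA4 window is chr2:181457136-181457385, both on the plus strand.
ITGAM: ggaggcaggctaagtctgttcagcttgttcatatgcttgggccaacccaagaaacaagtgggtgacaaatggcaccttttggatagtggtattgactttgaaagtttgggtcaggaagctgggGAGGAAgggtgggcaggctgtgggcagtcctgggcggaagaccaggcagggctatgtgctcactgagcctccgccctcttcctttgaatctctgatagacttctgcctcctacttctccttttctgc
ITGA4: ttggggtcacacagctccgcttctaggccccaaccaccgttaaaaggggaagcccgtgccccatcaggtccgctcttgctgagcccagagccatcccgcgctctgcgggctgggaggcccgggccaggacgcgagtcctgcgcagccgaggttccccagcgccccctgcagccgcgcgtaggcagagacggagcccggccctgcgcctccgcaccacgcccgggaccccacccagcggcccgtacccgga
GAGGAA was found in the ITGAM window, with its first base 127 bases before the start, and not in the ITGA4 window. It was also found in a window of ITGB1 and in that of ITGB7, and 23.6% of all 35116 windows of this length held it. The ITGAM window also held GGGCGG, a box of the factor SP1, starting 96 bases before the start and, on the other strand, 57 bases before it. That box stood in 42.6% of all windows. GTCTAGAC, a palindrome bound by SMAD proteins, was in none of the 8 windows of the 6 members and in 0.182% of all windows.

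Library totals ran from 47930276 to 58553247 counts. SKI mRNA was between 63.9 and 88.5 CPM in the control and between 40.7 and 59.6 CPM in the knockout, where CPM is the count divided by the scaled library size, as in edgeR. That difference had a log2 fold change of -0.73 (SE 0.19, edgeR adjusted p = 0.0282), so the transcript was lower but not absent. It missed the threshold without control replicate 2 (0.109), control replicate 3 (0.136) or knockout replicate 2 (0.0769) and with library totals (0.0673), and over 14 alternatives its adjusted p ran from 0.00241 to 0.136. Of 8 promyelocyte marker genes, MPO, AZU1, PRTN3, CTSG, CD33, MS4A3 and CEBPE had enough reads to be tested, and ELANE stood at 0.0366 CPM in the control. Those 7 were all called lower in the knockout, where 5.63% of all genes tested were called lower and 6.19% higher. AZU1, PRTN3 and CD33, at log2 -2.63, -4.18 and -0.57, lie on chromosome 19. The median there was -0.48 over genes with an average log2 CPM above 2. The summed level of the 8 ran from 12352 to 14650 CPM in the control and from 2939 to 8874 CPM in the knockout. MPO made up nearly all of it, averaging 12752 CPM in the control and 4857 CPM in the knockout. Of 10 mature neutrophil markers 3 were tested, CSF3R, CXCR2 and S100A9, and all 3 were higher. The summed level of the 10 ran from 30.0 to 39.4 CPM in the control and from 80.6 to 91.9 CPM in the knockout. CSF3R made up most of it, at 33.2 CPM on average in the control and 80.4 CPM in the knockout. CXCR2 averaged 0.722 and 3.81 CPM and S100A9 0.0832 and 0.466 CPM, in that order. The other markers had too few reads to be tested, and FCGR3B had no read. Of 9 monocyte and macrophage markers 2 were tested and 1 was higher, their sum was 4.89 to 5.42 CPM in the control and 8.37 to 12.4 CPM in the knockout, and MRC1 and MARCO had no read. Lymphoid markers summed to between 42.0 and 51.8 CPM in the control and between 34.3 and 39.6 CPM in the knockout, with 1 of 5 tested genes higher. Erythroid and megakaryocyte markers summed to between 0.457 and 1.09 CPM over the 6 libraries, with 0 of 1 tested called, and HBA1, HBA2, ALAS2 and PF4 had no read. Non-blood markers summed to between 2.95 and 5.36 CPM in the control and between 4.95 and 10.2 CPM in the knockout, with 0 of 1 tested called, and KRT19 and CDH5 had no read. The part of these shifts in the integrin results was not tested, and in such bulk libraries more cells of a kind and more RNA per cell cannot be told apart.

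In the control the most abundant integrin transcripts per length were ITGA5, ITGB2 and ITGA4, and the transcripts of the leukocyte alpha chains ITGAL, ITGAX and ITGAM were far lower. Levels between genes are given as RPKM, that is CPM per kilobase of the deposited gene length. ITGA5 stood at 19.8 ± 1.16 RPKM (SD, n = 3) and ITGB2 at 16.6 ± 3.02 RPKM (SD, n = 3), and the ranges of these neighbours overlapped. ITGA4 followed at 10.5 ± 2.54 RPKM (SD, n = 3), below every ITGB2 value, and overlapped ITGB1 at 6.67 ± 0.972 RPKM (SD, n = 3). ITGA6 stood at 3.66 ± 0.388 RPKM and ITGAL at 0.832 ± 0.384 RPKM (SD, n = 3 each), each apart from its neighbours. ITGAX at 0.321 ± 0.0895, ITGB7 at 0.223 ± 0.0896 and ITGAM at 0.184 ± 0.0307 RPKM (SD, n = 3 each) overlapped one with the next. Every control library thus had more ITGB2 transcript per length than ITGAL, ITGAX and ITGAM transcript together.

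In the knockout ITGB2 led at 29.8 ± 1.04 RPKM (SD, n = 3) and lay above every ITGA5 value, which averaged 18.8 ± 5.20 RPKM (SD, n = 3). ITGB1 at 6.87 ± 0.0633 RPKM and ITGA4 at 6.25 ± 3.86 RPKM (SD, n = 3 each) overlapped, as did ITGA4 and ITGA6 at 4.27 ± 0.836 RPKM (SD, n = 3). ITGAL reached 2.16 ± 0.429 and ITGAX 1.40 ± 0.197 RPKM (SD, n = 3 each), and both stood apart from their neighbours in the order. ITGAM at 0.259 ± 0.0383 and ITGB7 at 0.245 ± 0.0203 RPKM (SD, n = 3 each) overlapped. ITGB2 made up 73.8%, 68.9% and 69.1% of the summed RPKM of the 3 beta chains in the control and 81.1%, 80.2% and 80.8% in the knockout, so the groups did not overlap.

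**Figure D1:**
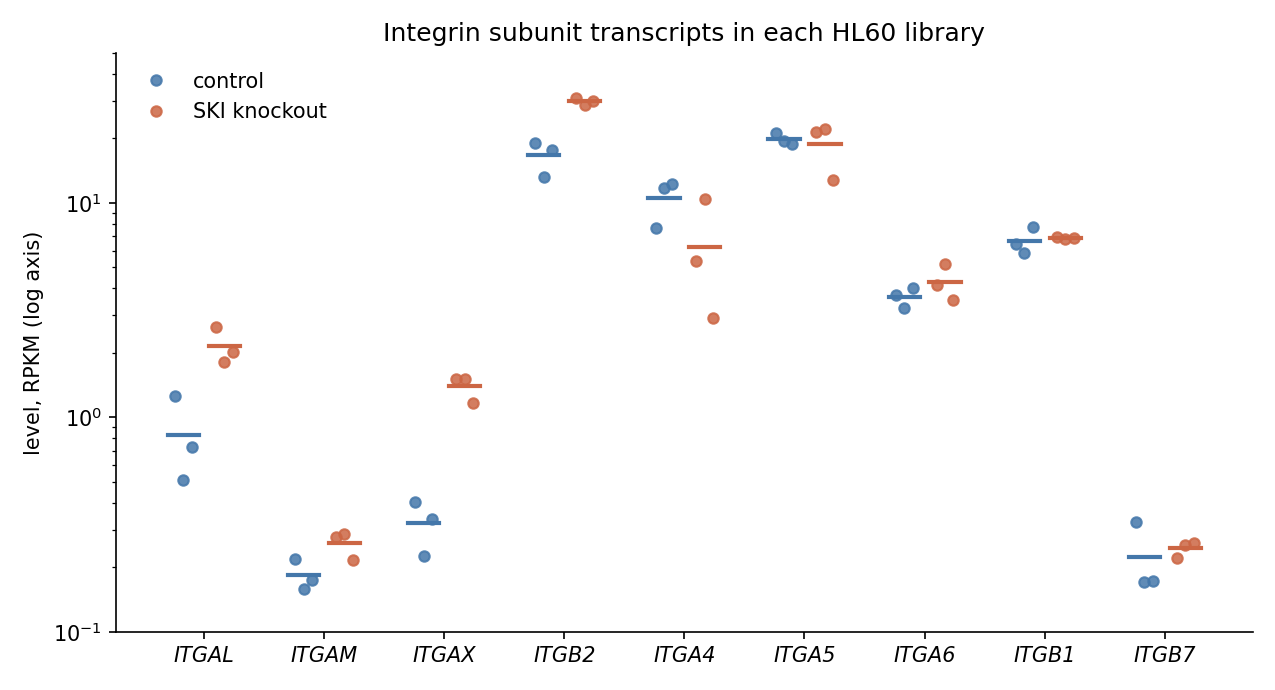
Level of each integrin subunit transcript in RPKM on a log axis, with 1 point per library, a line at the group mean, blue for the 3 control and orange for the 3 knockout libraries. The knockout points lie above all control points for ITGAL, ITGAX and ITGB2, and the groups overlap for the other 6 genes; ITGAD, with 2 reads in all, is left out.

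Comparing the groups shows which integrin transcripts differed where SKI had been targeted, and 3 subunits of the β2 family were higher in the knockout. ITGAX rose 4.36-fold, ITGAL 2.61-fold and ITGB2 1.79-fold, while ITGAM and all of the ITGB1 and ITGB7 group did not pass the test. These were 3 of the 9 members tested, all higher, beside 11.8% of all 16340 genes called in either direction, with 6.19% of all genes higher and 5.63% lower. Groups did not overlap for the same 3 members, a separation in the higher direction seen for 16.0% of all genes. In the main edgeR fit, DESeq2 and limma-voom none of the 9 was called lower. ITGA4 was called lower in 2 of the 14 alternatives, given below. In the main edgeR fit no lower member had an unadjusted p under 0.05, with ITGA4 at 0.0599. For ITGA4 the authors' deposited table lists an unadjusted p of 0.0281 (adjusted p = 0.132). The median log2 fold change of the 9 was 0.22, against -0.01 over all genes tested.

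ITGAX, the CD11c chain of dendritic cells, macrophages and neutrophils, stood at 2.64, 1.48 and 2.18 CPM in the control and at 9.90, 9.87 and 7.66 CPM in the knockout. The lowest knockout library was well above the highest control library. The log2 fold change was 2.13 (SE 0.26, edgeR adjusted p = 0.000788), with a 95% interval of 2.94-fold to 6.47-fold, and the call held in all 14 alternatives. For ITGAX the authors' deposited table lists 1.96 on the log2 scale (adjusted p = 3.21e-15).

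ITGAL, the CD11a chain of LFA-1, which binds ICAM molecules, stood at 8.14, 3.31 and 4.70 CPM in the control and at 17.1, 11.8 and 13.1 CPM in the knockout. Control replicate 1 was the highest of its group and still below every knockout library. The log2 fold change was 1.38 (SE 0.30, edgeR adjusted p = 0.0126), with a 95% interval of 1.65-fold to 4.11-fold. The call was lost without knockout replicate 1 (log2 1.23, adjusted p = 0.0644) and without control replicate 3 (1.29, 0.0769). Over the 14 alternatives the adjusted p ran from 7.26e-08 to 0.0769, and over those that left out 1 library from 0.00263 to 0.0769. For ITGAL the authors' deposited table lists 1.24 on the log2 scale (adjusted p = 4.48e-05).

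ITGB2, the chain shared by all 4 of these alpha chains, stood at 129, 90.1 and 120 CPM in the control and at 209, 195 and 203 CPM in the knockout. Knockout libraries lay close together, with an SD of 3.48% of their mean, against 18.1% in the control. The log2 fold change was 0.84 (SE 0.16, edgeR adjusted p = 0.00789), with a 95% interval of 1.39-fold to 2.30-fold. Without control replicate 2, the lowest of its group, it was 0.70 and just missed the threshold (adjusted p = 0.0514, the highest of 14 alternatives, the lowest being 6.13e-05). For ITGB2 the authors' deposited table lists 0.81 on the log2 scale (adjusted p = 0.000235). An antisense gene, ITGB2-AS1, shares 303 exon bases with ITGB2 and had 16 to 122 reads a library, against 5308 to 11564 for ITGB2. ITGB2-AS1 was itself called higher, 3.43-fold (edgeR adjusted p = 0.0339). That call was lost without control replicate 2 (0.133), control replicate 3 (0.152), knockout replicate 1 (0.0711) or knockout replicate 3 (0.0710), within 5.97e-05 to 0.152 over 13 alternatives.

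ITGAM, the CD11b chain of Mac-1, stood at only 1.23, 0.899 and 0.986 CPM in the control (59, 53 and 56 reads) and at 1.57, 1.61 and 1.22 CPM in the knockout (87, 78 and 64 reads). Knockout replicate 3 lay just below control replicate 1, so the groups overlapped. The log2 fold change was 0.50 (SE 0.29, edgeR adjusted p = 0.296), and its 95% interval ran from 0.912-fold to 2.19-fold. A change of the size seen for ITGAX lies outside that interval. No alternative called ITGAM, with adjusted p-values from 0.182 to 0.568.

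ITGAD, the CD11d chain, known chiefly from macrophages of the spleen, had 1 read in control replicate 3, 1 in knockout replicate 2 and none in the other libraries. A count of 0 allows up to 3 counts, or 0.0115 to 0.0142 RPKM depending on the library, for counting error alone. Both groups were under that limit, so no fold change is given, and the gene was not tested.

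**Figure D2:**
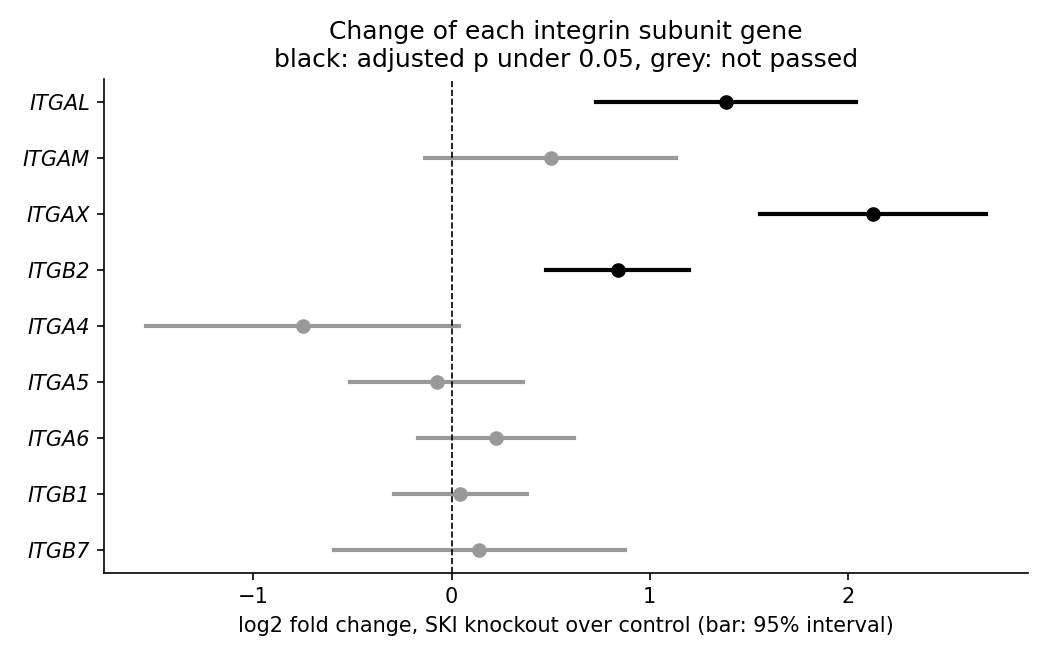
Log2 fold change of each tested subunit gene, knockout over control, as a point with its 95% interval; black marks an edgeR adjusted p under 0.05 and grey the rest. The intervals of ITGAL, ITGAX and ITGB2 lie above 0, from 0.48 at the lowest, and those of the other 6 genes include 0.

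Ratios of 2 subunits within the same library do not depend on how libraries are scaled. Of 11 ratios compared, 4 did not overlap between groups, all of them within the β2 family. They were ITGAX over ITGAM, over ITGB2 and over ITGAL, and ITGAM over ITGAL. These share genes and are not separate results. Of all single genes tested, 32.2% did not overlap between groups in either direction, and no such share was obtained for ratios. Transcripts of ITGAX per length were 1.85, 1.42 and 1.92 times those of its neighbour ITGAM in the control and 5.46, 5.30 and 5.45 times in the knockout. The difference was 1.65 on the log2 scale, with a two-sided exact permutation p of 0.1, the smallest that 3 against 3 can give, and 0.275 adjusted over the 11 ratios. This design cannot reach 0.05 for any ratio. Leaving out any 1 library kept that difference between 1.52 and 1.73.

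ITGAX over ITGB2 went from 0.0212, 0.0171 and 0.0189 in the control to 0.0493, 0.0527 and 0.0392 in the knockout, again without overlap (log2 difference 1.30, exact permutation p = 0.1). ITGAX over ITGAL rose from between 0.321 and 0.460 to between 0.573 and 0.830 (log2 difference 0.69, exact permutation p = 0.1). ITGAM over ITGAL went the other way, from between 0.173 and 0.311 to between 0.105 and 0.157 (log2 difference -0.96, exact permutation p = 0.1). ITGAL over ITGB2 overlapped, at 0.0661, 0.0386 and 0.0412 in the control and 0.0860, 0.0634 and 0.0678 in the knockout (exact permutation p = 0.2). ITGAM over ITGB2 overlapped too, with a log2 difference of -0.36 (exact permutation p = 0.2).

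**Figure D3:**
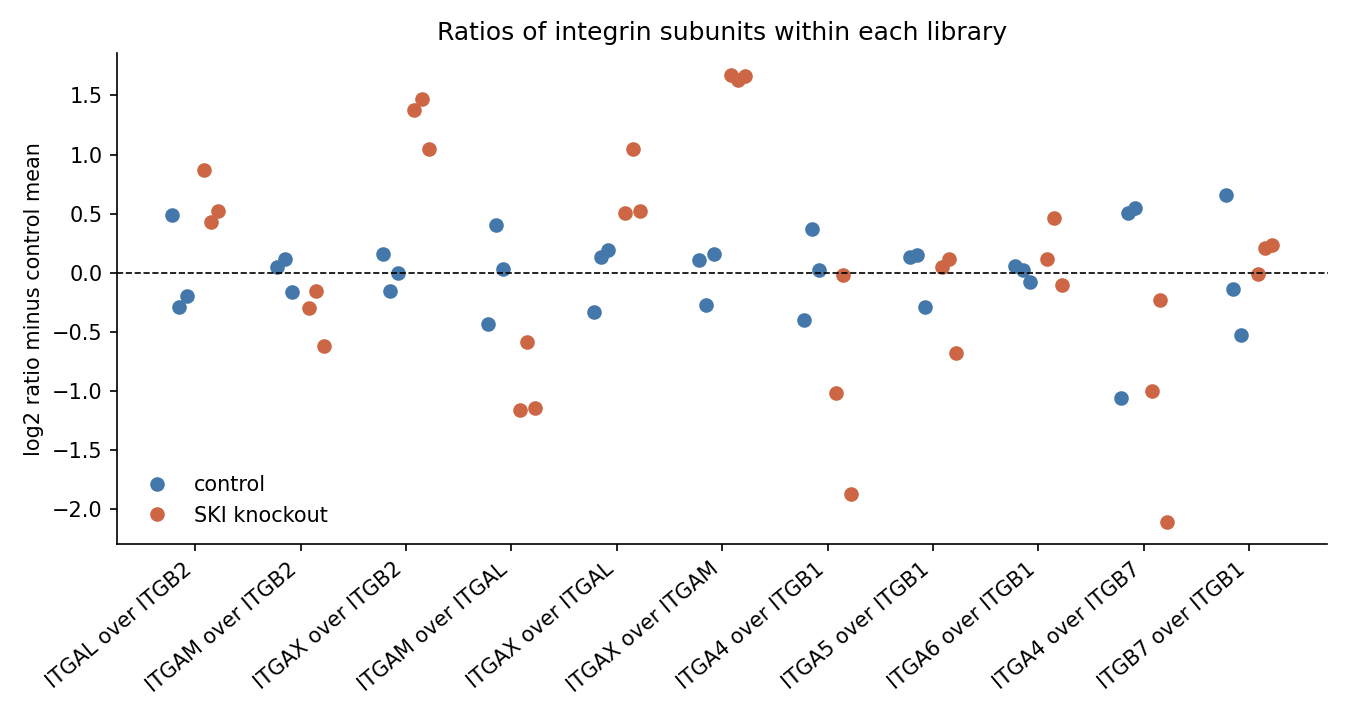
Log2 ratio of 2 subunit transcripts in each library, minus the control mean of that ratio, for the 11 ratios, with 3 control (blue) and 3 knockout (orange) points each. The groups are apart for ITGAX over ITGB2, ITGAM over ITGAL, ITGAX over ITGAL and ITGAX over ITGAM, and knockout points of the ITGA4 ratios are the most scattered.

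Among transcripts for the partners of ITGB2, ITGAL had the largest share in every library, the ITGAX share was higher in the knockout and the ITGAM share lower. The shares are a description with no test, and they depend on each other: the level of ITGAM itself averaged 0.184 RPKM in the control and 0.259 RPKM in the knockout, and it did not pass the test. ITGAX held 21.5%, 25.2% and 27.0% of the summed RPKM of the 4 alpha chains in the control and 34.2%, 41.7% and 34.4% in the knockout. ITGAM held 11.6%, 17.7% and 14.1% in the control and 6.25%, 7.87% and 6.31% in the knockout. Neither gene's groups overlapped. The ITGAL share was 60.9% ± 5.30 in the control and 56.4% ± 5.32 in the knockout (SD, n = 3 each), a difference smaller than the spread. The summed level of the 4 chains went from 1.88, 0.896 and 1.24 RPKM to 4.44, 3.62 and 3.41 RPKM. ITGB2 transcripts were 10.1, 14.8 and 14.2 times that sum in the control and 6.93, 7.92 and 8.75 times in the knockout, so that ratio was lower in every knockout library. These are transcript levels, and protein was not measured here.

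**Figure D4:**
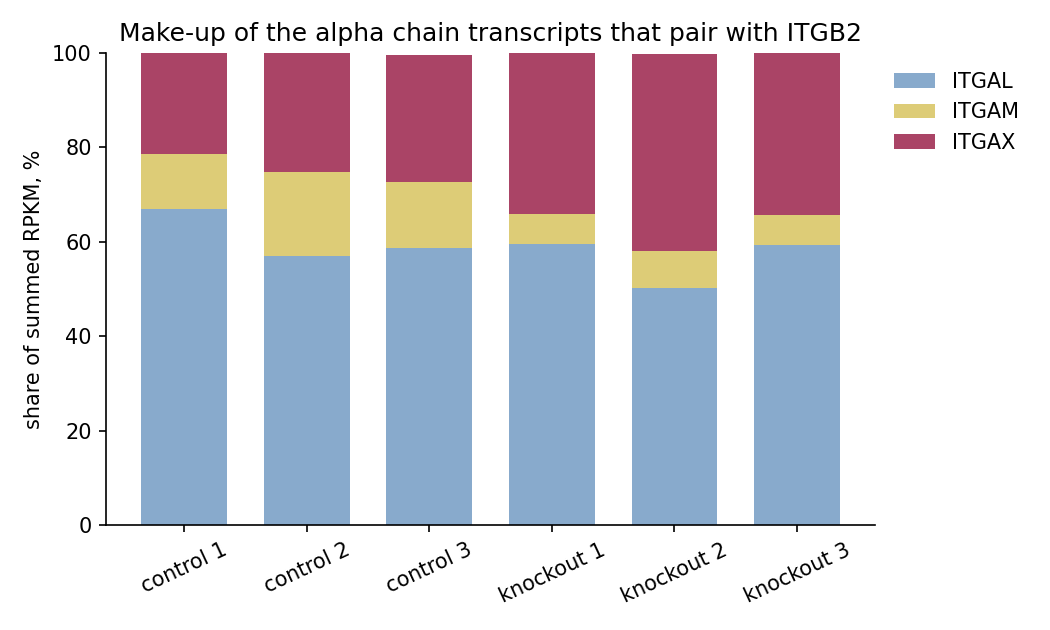
Share of the summed RPKM of ITGAL, ITGAM, ITGAX and ITGAD held by each gene, in percent, with 1 bar per library; ITGAD, at most 0.322%, is too small to draw. The ITGAX part is larger, and the ITGAM part smaller, in each knockout bar than in each control bar.

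Subunits that pair with ITGB1 or ITGB7 did not pass the test, and ITGA4 had the largest SD relative to its mean in the knockout. ITGA4, the alpha chain of VLA-4, which holds progenitors in the marrow, stood at 60.0, 92.6 and 96.5 CPM in the control and at 42.3, 82.8 and 23.0 CPM in the knockout. Knockout replicate 2 lay within the control range and the other two below it. The SD in the knockout was 61.9% of the mean, the largest such share of the 9 tested members. The log2 fold change was -0.75 (SE 0.36, edgeR adjusted p = 0.206), with a 95% interval from -1.54 to 0.04. ITGA4 passed without knockout replicate 2 (log2 -1.32, adjusted p = 0.0121) and with no filter on low counts (-0.73, 0.00149). In the other 12 alternatives it did not pass, and the range over all 14 was 0.00149 to 0.462.

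ITGA5, whose product binds the RGD motif of fibronectin, stood at 160, 147 and 143 CPM in the control and at 163, 167 and 96.9 CPM in the knockout. Its log2 fold change was -0.07 (SE 0.20, edgeR adjusted p = 0.852), and the sign turned without knockout replicate 3, the low library (0.16, adjusted p = 0.510, within 0.510 to 0.962 over the alternatives). ITGB1, the common partner of these alpha chains, was the steadiest in the knockout, at 42.5, 41.8 and 42.0 CPM, against 39.5, 35.7 and 47.4 CPM in the control. Its log2 fold change was 0.04 (SE 0.15, edgeR adjusted p = 0.889), and the 95% interval was 0.816-fold to 1.30-fold. A processed copy of this gene, ITGB1P1, had no read in any library.

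ITGA6, the laminin receptor chain of stem and progenitor cells, stood at 24.8, 21.8 and 27.0 CPM in the control and at 27.7, 34.7 and 23.6 CPM in the knockout. Its log2 fold change was 0.22 (SE 0.18, edgeR adjusted p = 0.465), with a 95% interval of 0.888-fold to 1.54-fold. ITGB7, the gut-homing beta chain, was near 1 CPM, at 1.46, 0.764 and 0.775 CPM in the control (70, 45 and 44 reads) and at 0.994, 1.14 and 1.16 CPM in the knockout (55, 55 and 61 reads). Its log2 fold change was 0.14 (SE 0.34, edgeR adjusted p = 0.830), with a 95% interval of 0.662-fold to 1.83-fold. Its exons share 1886 bases with ZNF740 on the opposite strand, a gene with 3118 to 4805 reads a library. The sources used here do not say whether reads were counted by strand, so the ITGB7 value is uncertain. ITGAL, ITGA5, ITGA6 and ITGB1 share shorter stretches of exon with opposite-strand genes that have no row in the count table.

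The 5 ratios among these genes all overlapped between groups. Transcripts of ITGA4 per length were 1.18, 2.01 and 1.58 times those of ITGB1 in the control and 0.771, 1.54 and 0.425 times in the knockout (log2 difference -0.97, exact permutation p = 0.2). The ratio of ITGA5 to ITGB1 was 3.01 ± 0.492 in the control and 2.73 ± 0.754 in the knockout (SD, n = 3 each, exact permutation p = 0.5), and that of ITGA6 to ITGB1 was 0.551 ± 0.0278 and 0.622 ± 0.125 (SD, n = 3 each, exact permutation p = 0.5). The summed level of the 3 alpha chains was 32.4, 34.3 and 35.1 RPKM in the control and 31.0, 37.7 and 19.2 RPKM in the knockout. Knockout replicate 3 was low in that sum, with the lowest ITGA4 and ITGA5 of the 6 libraries.

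ITGAL, ITGAM, ITGAX and ITGAD lie on chromosome 16, where ITGAM, ITGAX and ITGAD follow one another and 44 genes of the count table stand between ITGAL and ITGAM. Gene order was taken from RefSeq (GRCh38.p14). Of the 32 tested genes between ITGAL and ITGAM none was called higher and 1 lower. The median over those 32 genes was -0.18. Of the 10 genes on either side of the cluster 14 in all were tested, and 2 were higher, both on the side of ITGAL. SEPT1, a septin gene of leukocytes, rose 3.22-fold, from between 17.6 and 28.8 to between 52.7 and 111 CPM (adjusted p = 0.00274). SEPHS2, an enzyme of selenoprotein synthesis directly beside ITGAL in that order, rose 1.82-fold (adjusted p = 0.00684). DESeq2 called 5 of those 14 genes in place of 2. Over all genes tested it called 2625 in place of 1932, so more genes passed there in general. With each library centred on the median of the gene's chromosome, ITGAL, ITGAX and ITGB2 had log2 fold changes of 1.48, 2.23 and 0.89 and kept their calls.

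**Figure D5:**
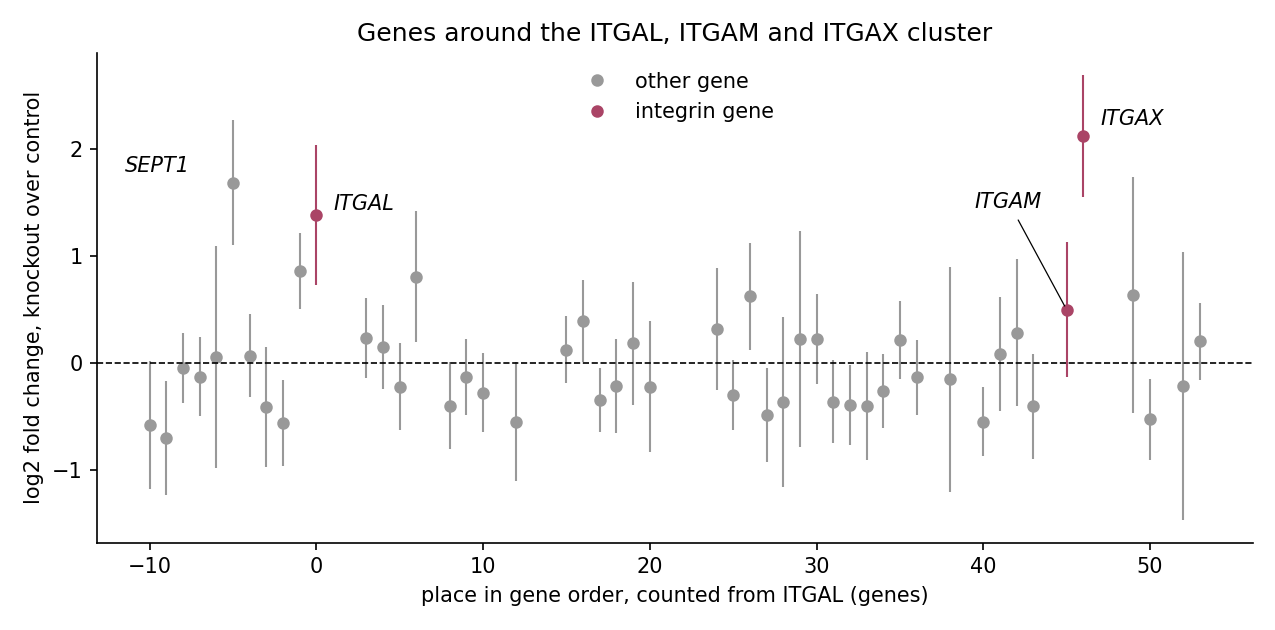
Log2 fold change, knockout over control, with its 95% interval, for the tested genes from 10 places before ITGAL to 10 after ITGAD, in gene order and not to scale in bases. ITGAX and ITGAL, with SEPT1, stand above most other genes of the stretch, and ITGAM beside ITGAX has an interval that includes 0.

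Genes that act with integrins moved in both directions. Over 6 lists of such genes, 69 of the 97 in the count table were tested. Of these 9 were higher and 7 lower, beside 6.19% higher and 5.63% lower (11.8% in either direction) of all genes tested. The count of 16 was 10 without knockout replicate 1 and 11 without control replicate 2 or control replicate 3. Among 16 other integrin subunits 10 were tested and none was called by the main edgeR fit, DESeq2 or limma-voom. In that edgeR fit 1 had an unadjusted p under 0.05. Their median log2 fold change was 0.19. The highest of these per length was ITGAE, the CD103 chain that pairs with ITGB7, at 0.804 RPKM over the 6 libraries (log2 0.57, edgeR adjusted p = 0.128).

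Of 18 genes that switch integrins into their binding state from inside the cell, 16 were tested, 1 was higher and 2 were lower, with a median of 0.03. FERMT2, a kindlin mainly of non-blood cells, rose 6.24-fold, from 0.983, 0.747 and 0.634 CPM to 6.61, 3.56 and 4.55 CPM (edgeR adjusted p = 0.000693). The kindlin of blood cells, FERMT3, was the highest of the list per length at 96.7 RPKM and did not pass (log2 0.22, adjusted p = 0.456). APBB1IP, which encodes RIAM, a link between RAP1 and talin, fell by 0.84 on the log2 scale (edgeR adjusted p = 0.0230). RAPGEF1, an exchange factor for RAP1, fell by 0.77 (edgeR adjusted p = 0.0444). APBB1IP lost its call without control replicate 1 (0.0667), control replicate 2 (0.118) or knockout replicate 1 (0.0812), within 0.00239 to 0.118 over the alternatives. RAPGEF1 lost it without control replicate 2 (0.153), control replicate 3 (0.165) or knockout replicate 1 (0.0732), and with library totals (0.0867), within 0.000848 to 0.165.

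Of 20 genes of the adhesion complex and its signalling 18 were tested, 4 were higher and 2 lower, with a median of 0.30. FGR, a Src family kinase that acts downstream of β2 integrins in neutrophils, rose 4.94-fold, from 1.61, 0.441 and 0.810 CPM to 5.76, 3.46 and 4.78 CPM (edgeR adjusted p = 0.00489). In control replicate 1 FGR, like ITGAL and ITGAX, had its highest level of the group. Without control replicate 1 the log2 fold change of FGR was 2.90, against 2.30. PARVG, the parvin of blood cells, rose 1.93-fold (adjusted p = 0.00532) and ACTN4, an actinin, was 1.94-fold lower (adjusted p = 0.00366). Calls of this list chosen for naming after their values were seen were PXN, encoding paxillin, 2.19-fold higher (adjusted p = 0.0125, and 0.0622 without knockout replicate 1), and VAV1, 1.69-fold lower (adjusted p = 0.00846). LCP1, the leukocyte plastin, was the highest per length at 247 RPKM and did not pass (log2 0.52, adjusted p = 0.0815).

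Of 18 ligand genes 7 were tested and none was called by the main edgeR fit, DESeq2 or limma-voom. In that edgeR fit 3 had an unadjusted p under 0.05, and the median was 0.11. ICAM3, a ligand of LFA-1 on leukocytes themselves, was the highest at 65.3 RPKM and had a log2 fold change of 0.00 (SE 0.17, edgeR adjusted p = 0.995). VCAM1, the ligand of VLA-4 on endothelium, had no read in any library. Of 12 surface partners 9 were tested, 2 were higher and 2 lower, with a median of -0.07. CD63, a tetraspanin of granule membranes, rose 1.75-fold (edgeR adjusted p = 0.0207) and CD82, another tetraspanin, 2.38-fold (adjusted p = 0.0361). PLAUR, the urokinase receptor that binds Mac-1, was 2.11-fold lower (adjusted p = 0.00702) and BSG, basigin, 1.73-fold lower (adjusted p = 0.00983). SLC3A2, the CD98 heavy chain that binds β1 tails, was the highest per length at 85.4 RPKM and did not pass (log2 0.43, adjusted p = 0.120). CD63 lost its call without control replicate 2 (0.103), control replicate 3 (0.111) or knockout replicate 1 (0.0565). CD82 lost it in limma-voom (0.0508) and without control replicate 2 (0.136), control replicate 3 (0.154), knockout replicate 1 (0.0757) or knockout replicate 2, the last with its log2 fold change at 0.77 against 1.25 (0.0841). BSG lost its call without control replicate 3 (0.0577). Over the alternatives the adjusted p ran from 0.000124 to 0.111 for CD63, from 2.96e-08 to 0.154 for CD82 and from 0.000359 to 0.218 for BSG.

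Of 14 other leukocyte adhesion genes 9 were tested, 2 were higher and 1 lower, with a median of 0.12. CD58, the ligand of CD2, rose 2.34-fold, from 4.52, 4.99 and 3.56 CPM to 9.38, 8.34 and 12.8 CPM (edgeR adjusted p = 0.00686). CD2 itself, at 0.679 CPM on average in the control and 0.248 CPM in the knockout, fell by 1.46 on the log2 scale (edgeR adjusted p = 0.0370), and missed the threshold without control replicate 1 (0.0626), 2 (0.0989) or 3 (0.161) or knockout replicate 1 (0.133), within 0.0151 to 0.161 over 13 alternatives. CD44, the hyaluronan receptor, was the highest per length at 58.7 RPKM and did not pass (log2 -0.62, edgeR adjusted p = 0.0799).

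Of the 7 lower calls in these lists, ACTN4, VAV1, PLAUR and BSG lie on chromosome 19, over whose 695 genes with an average log2 CPM above 2 the median log2 fold change was -0.48, and RAPGEF1 on chromosome 9, with a median of -0.23. With each library centred on the chromosome's median those 5 calls ended, with log2 fold changes of -0.48, -0.29, -0.60, -0.32 and -0.54 and adjusted p-values of 0.0875, 0.222, 0.0988, 0.218 and 0.142 in that order. The other 11 of the 16 calls held. Among the higher ones, PARVG lies on chromosome 22, with a median of 0.23, and FERMT2 on chromosome 14, with a median of -0.19. Over the 14 alternatives the log2 fold change of PARVG ran from 0.71 to 1.08. For ITGAL, ITGAM and ITGAX the median of chromosome 16 was -0.12, and for ITGB2 that of chromosome 21 was -0.07.

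Genes most like each β2 family member were sought among 10561 others whose log2 CPM averaged 2 or more, by the root mean square difference of mean-centred log2 CPM over the 6 libraries. A small value means the same rises and falls from library to library, and any gene with a like change between groups can score well. The nearest to ITGAX were CORO2A at 0.12, APOBEC3F at 0.15 and TTC38 at 0.18. Those nearest to ITGAL were ANGPTL6 at 0.15, ARFGAP3 at 0.16 and GPR132 at 0.17. For ITGB2 they were TIRAP at 0.06, RCAN3 at 0.07 and EDEM2 at 0.07, and for ITGAM COPZ1 at 0.09, BASP1 at 0.09 and AGTRAP at 0.10. CORO2A went from 7.87, 5.58 and 8.23 CPM in the control to 33.5, 30.7 and 25.1 CPM in the knockout. Control replicate 2 and knockout replicate 3 were the lowest of their groups, as for ITGAX. The other genes nearest to ITGAX did not follow it within the knockout. APOBEC3F was highest there in knockout replicate 3 (10.9 CPM), and TTC38 was lowest in knockout replicate 2 (29.6 CPM).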

How the data were processed

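Per the labels' protocols, libraries were made from total RNA with the Illumina TruSeq kit for stranded mRNA. The deposited table holds raw counts and a length for each gene. The submitters' processing notes name bcl2fastq, TopHat2, featureCounts, Subread, DESeq2 and DESeq without their roles, and the build hg19 (GRCh37). The sources used here give no versions, annotation, strand setting or treatment of shared reads. A second deposited table holds the authors' log2 fold changes with p-values, quoted only where named, and its 6 columns of per-library values were not used. The 10 members and the gene lists were chosen with earlier results of these data known.

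Counts were matched to 3 control and 3 knockout libraries by group and replicate number. edgeR 4.0.16 (R 4.3.3) tested knockout against control over all genes kept by filterByExpr, with TMM scaling, the quasi-likelihood F test, group as the only term and Benjamini-Hochberg adjustment over 16340 genes at 0.05. CPM and RPKM use TMM-scaled library sizes, log2 CPM a prior count of 2, and SEs come from the F statistic. Intervals and floors (95%, 3 counts) rest on these 6 libraries and cover counting error only where they come from counts. Chromosomes came from GENCODE release 29 and RefSeq by symbol. Named were all members, per list up to 4 calls with the smallest p and the highest by RPKM, called neighbours, and 3 genes by likeness. Some genes that this rule names are counted but not reported here. Alternatives were DESeq2 size factors, library totals, 2 filters, DESeq2 1.42.0, limma-voom (limma 3.58.1), a replicate block, chromosome centring and each library left out. On simulated data of this comparison (16340 genes), 85% of 2-fold and 100% of 4-fold changes were recovered, and 6.09% of the calls were false. The simulation changed 200 genes and shifted no chromosome, whereas 1932 genes were called in the data, so these rates may differ here. Changes were placed only in genes with an average log2 CPM above 2. The recovery therefore does not cover ITGAM and ITGB7, at 1.25 and 1.05 CPM over the 6 libraries.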

Additional observations from a re-analysis of the deposited data

How the results depend on the processing

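ITGAX kept its direction and its call in all 14 alternative fits, ITGAL in 12 and ITGB2 in 13. Without 1 library the log2 fold change ran from 1.92 to 2.32 for ITGAX, 1.13 to 1.80 for ITGAL (adjusted p up to 0.0769), 0.70 to 0.94 for ITGB2 (up to 0.0514), -1.32 to -0.39 for ITGA4 (0.0121 to 0.462), 0.40 to 0.64 for ITGAM and 0.09 to 0.37 for ITGA6. The sign turned for ITGA5 without knockout replicate 3 (0.16), for ITGB1 without control replicate 2 (-0.045) and for ITGB7 without control replicate 2 (-0.023) or 3 (-0.016), in ranges of -0.18 to 0.16, -0.045 to 0.16 and -0.023 to 0.51, none of them called. So did the ratios of ITGA5 to ITGB1 (log2 difference 0.085 without knockout replicate 3, in a range of -0.31 to 0.085) and of ITGB7 to ITGB1 (-0.11 without control replicate 3, in a range of -0.11 to 0.48). With no filter on low counts ITGA4 passed (-0.73, adjusted p = 0.00149); the cause was not tested. Members called numbered 2 to 4 without 1 library, list members 10 to 20, locus neighbours 2 to 3 (5 in DESeq2), and all genes 740 to 2488 (2625 in DESeq2).

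Same-numbered libraries did not deviate together in every pair (r of -0.17, 0.42 and -0.09 over 10568 genes), so the numbers were not read as pairs. Larger values stood between unlike numbers, with r of 0.54 for control replicate 1 with knockout replicate 3. Control replicate 1 with knockout replicate 2 had -0.51. What such shared deviations come from was not tested. With the replicate block 3 members passed, with ITGAL at 1.46, ITGAX at 2.15 and ITGB2 at 0.85, and 2107 genes in all. The paired difference of ITGAX over ITGAM was 1.65, at an exact sign-flip p of 0.25, the smallest 3 pairs allow. ITGAM and ITGB7, with 44 to 87 reads a library, were the members most limited by depth among those tested.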
